A study of Mus musculus with 8 samples.

Results

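The genes followed here in sorted CD4+ T cells are 8 receptors of the tumour necrosis factor (TNF) superfamily, *Cd27*, *Tnfrsf4* (OX40), *Tnfrsf9* (4-1BB), *Tnfrsf18* (GITR), *Tnfrsf1b* (TNFR2), *Tnfrsf1a* (TNFR1), *Tnfrsf25* (DR3) and *Fas*. They were chosen by name, with earlier results of these data known, as CD27 and 7 other receptors of its family that T cells carry. All 8 members were found among the 52636 rows of the deposited table, and each reached 60 in 2 libraries or more, the minimum that left 12816 genes for testing.

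RNA was sequenced from splenic Tregs (CD4+, GFP+ in Foxp3 reporter mice) and Tconvs (CD4+, GFP-) of CD27+/- mice, used as controls, and of CD11c-Cd70tg;CD27+/- mice (CD70Tg). Per the methods, CD4+ cells were first enriched by magnetic removal of cells with surface markers that included CD49b, GR1, Ter119, CD11c, CD8β and MHC class II, and for Tconvs CD25, and then sorted as CD3+ and CD4+. Each of the 4 groups had 2 libraries, made from 200000 sorted cells apiece, of mice aged 6 to 8 weeks. In CD70Tg mice the CD11c promoter, active in dendritic cells, drives CD70, the ligand of CD27, so that T cells meet CD70 without infection or immunization. Mice of both genotypes carried 1 deleted *Cd27* allele, and which part of the gene it lacks is not given in the sources used here, so that the level of *Cd27* may differ from that of a mouse with 2 intact alleles. The control columns are named KO in the table and WT in the sample descriptions, and were taken as the CD27+/- controls. Nothing states that the libraries of a group came from separate mice, so that p-values measure the spread between these libraries, which may be technical.

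Receptors of this family are bound by trimeric ligands of the TNF family on neighbouring cells. CD27, OX40, 4-1BB, GITR and TNFR2 have no death domain. They recruit TNF receptor-associated factors (TRAFs), which lead to the canonical and alternative NF-κB pathways, and act on T cells as costimulatory receptors that favour survival and division. TNFR1, DR3 and Fas carry a death domain, which can bind adaptors such as TRADD or FADD and, for Fas above all, activate caspases. Resting Tregs are known for high levels of GITR, OX40 and TNFR2. CD27 is carried by naive T cells too, and is shed and lost as effector cells differentiate fully.

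Of the 8 members, 5 lie on chromosome 4 (GRCm38, mm10, with GENCODE M21 annotation). *Tnfrsf4* (plus strand, chr4:156013843-156016612) and *Tnfrsf18* (plus strand, chr4:156026164-156028895) are neighbours with 9.55 kb between them. *Tnfrsf1b* (minus strand, chr4:145213463-145246870), *Tnfrsf9* (plus strand, chr4:150914562-150946102) and *Tnfrsf25* (plus strand, chr4:152115934-152120119) stand farther off. *Cd27* (minus strand, chr6:125232622-125237010) and *Tnfrsf1a* (plus strand, chr6:125349362-125362484) share chromosome 6, with 112 kb between them, and *Fas* (plus strand) lies at chr19:34290666-34327772.

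The promoters shown are those of *Tnfrsf9*, *Tnfrsf1b* and *Tnfrsf4*, whose transcripts rose in CD70Tg Tconvs (*Tnfrsf9* also in CD70Tg Tregs), and that of *Tnfrsf25*. The *Tnfrsf25* transcript did not pass the test between genotypes described below, though it did in Tconvs under some other settings. Its libraries are compared further on. Each promoter is read on the strand of its gene, from 250 bases before to 50 bases after a RefSeq start on GRCm38.p6. All 8 members had at least 1 such entry, 10 in all. Capitals mark matches to 3 motifs searched on both strands, an NF-κB motif (GGGA, any 4 bases, then CC), an AP-1 motif (TGANTCA) and a forkhead motif (TGTTTAC).
Tnfrsf9 promoter, chr4:150927749-150928048, plus strand: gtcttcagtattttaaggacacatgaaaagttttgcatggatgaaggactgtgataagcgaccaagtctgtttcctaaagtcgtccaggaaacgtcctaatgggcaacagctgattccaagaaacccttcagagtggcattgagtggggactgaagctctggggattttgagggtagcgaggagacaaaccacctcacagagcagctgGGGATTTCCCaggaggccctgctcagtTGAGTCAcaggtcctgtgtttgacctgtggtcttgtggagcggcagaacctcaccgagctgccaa
Tnfrsf1b promoter, chr4:145246821-145247120, minus strand: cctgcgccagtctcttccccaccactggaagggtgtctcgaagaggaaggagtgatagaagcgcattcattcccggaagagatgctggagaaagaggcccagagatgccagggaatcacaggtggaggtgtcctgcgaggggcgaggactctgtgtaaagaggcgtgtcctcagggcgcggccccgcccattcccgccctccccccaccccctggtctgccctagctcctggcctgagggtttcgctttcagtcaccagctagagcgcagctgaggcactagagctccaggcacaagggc
Tnfrsf4 promoter, chr4:156013445-156013744, plus strand: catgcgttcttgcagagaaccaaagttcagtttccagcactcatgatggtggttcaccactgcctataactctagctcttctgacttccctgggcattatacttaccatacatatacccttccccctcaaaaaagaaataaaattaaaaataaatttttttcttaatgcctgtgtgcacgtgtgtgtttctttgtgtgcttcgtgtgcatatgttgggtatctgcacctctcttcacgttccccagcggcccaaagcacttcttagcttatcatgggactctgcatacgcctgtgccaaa
Tnfrsf25 promoter, chr4:152115684-152115983, plus strand: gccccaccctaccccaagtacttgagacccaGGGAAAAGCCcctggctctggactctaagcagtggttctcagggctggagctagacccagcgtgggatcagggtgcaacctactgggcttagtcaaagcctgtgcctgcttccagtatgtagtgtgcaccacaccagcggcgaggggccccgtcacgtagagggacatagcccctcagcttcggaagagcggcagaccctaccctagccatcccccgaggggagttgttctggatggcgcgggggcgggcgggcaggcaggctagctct

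The *Tnfrsf9* entry shown holds an NF-κB match that begins 42 bases before the start and an AP-1 match 15 bases before it, and these matches do not overlap. The other *Tnfrsf9* entry, whose start lies upstream, held no match. The *Tnfrsf25* entry shown has an NF-κB match 219 bases before the start. Elsewhere, an AP-1 match was found 211 bases before the start of *Fas*, and *Cd27*, *Tnfrsf18*, *Tnfrsf1a*, *Tnfrsf1b*, *Tnfrsf4* and the second *Tnfrsf25* entry held none of these letters. Of 32851 RefSeq promoters of this length, 20.7% held the NF-κB motif, 7.81% the AP-1 motif and 3.65% the forkhead motif. These are matches of letters, and no binding was measured.

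Values are reads per gene scaled by the authors to 20 M per library, and a value of 20 stands for 1 read per M. The number of reads on genes behind a library, read from the step between its low values, was 6.94 to 33.3 M in Tconvs and 1.91 to 4.57 M in Tregs. These estimates are less certain in the first control and the second CD70Tg Tconv library, where the step is about 1 or below. A member's value rested on 73 reads (*Tnfrsf1a*, first CD70Tg Treg library) to 10602 reads (*Tnfrsf1b*, second CD70Tg Tconv library), so that none was near the value of 3 reads used as a floor (at most 31.3). *Foxp3* lay between 19769 and 21367 in Tregs and between 1039 and 1497 in Tconvs, and *Cd4* was at 16100 or more in every library. Libraries of 1 group are called first and second in the order of the table's columns, which has no other meaning. The log2 fold changes are on the log2(value + 5) scale, with p-values from limma adjusted by Benjamini and Hochberg's method over all 12816 genes, and a member is called up or down at an adjusted p-value under 0.05.

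**Figure D1:**
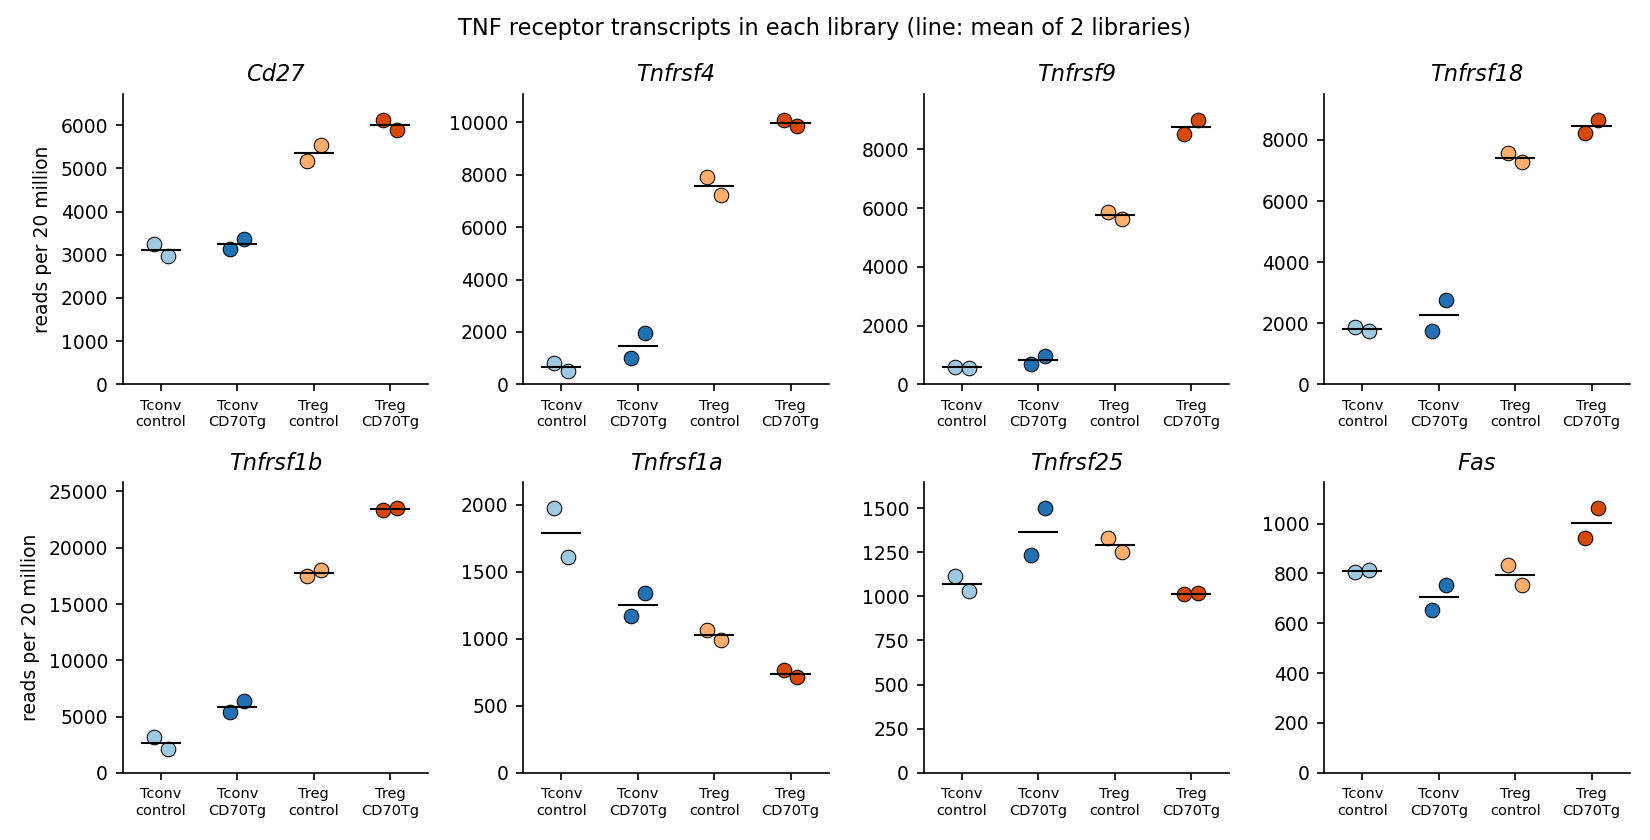
Value of each receptor gene (reads per 20 M, linear axis from 0) in each of the 8 libraries, with a line at the mean of the 2 libraries of a group. *Tnfrsf4*, *Tnfrsf9*, *Tnfrsf18* and *Tnfrsf1b* sit far higher in Tregs, *Tnfrsf1a* sits higher in Tconvs, and the 2 subsets overlap or nearly so for *Tnfrsf25* and *Fas*.

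Tregs of control mice differed from Tconvs in most of these receptors. *Tnfrsf4*, *Tnfrsf9*, *Tnfrsf1b*, *Tnfrsf18* and *Cd27* were higher in Tregs, *Tnfrsf1a* was lower, and *Tnfrsf25* and *Fas* did not pass the test. Thus 5 of 8 members were up and 1 was down, where 27.5% of all tested genes were up and 18.4% down. The median log2 fold change was 1.41 over the members and 0.07 over all tested genes. As a bulk measurement, a level cannot tell more cells with a transcript from more RNA per cell.

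*Cd27*, the receptor for the transgenic ligand, was at 3239 and 2980 in control Tconvs and at 5173 and 5543 in control Tregs. The groups did not overlap, and the level in Tregs was 1.72-fold that in Tconvs (log2 fold change 0.78 ± 0.11 SE, limma adjusted p = 2.83e-05). Among the receptors that were higher in Tregs it was the one with the smallest difference. Annotation places Mir8113 on the same strand over 5.54% of its exon length.

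*Tnfrsf4* encodes OX40, a costimulatory receptor of activated T cells. Its values were 821 and 515 in control Tconvs and 7900 and 7229 in control Tregs. Every Treg library was far above every Tconv library, by 11.5-fold on average (3.53 ± 0.23, adjusted p = 6.44e-09). *Tnfrsf9*, which encodes 4-1BB, another receptor induced by activation, was at 600 and 555 in control Tconvs and at 5877 and 5640 in control Tregs. The difference was 9.90-fold (3.31 ± 0.14, adjusted p = 6.39e-11).

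*Tnfrsf1b* encodes TNFR2, the TNF receptor without a death domain. It was at 3155 and 2145 in control Tconvs and at 17474 and 18052 in control Tregs, the highest values of any member. Tregs were 6.82-fold above Tconvs (2.77 ± 0.15, adjusted p = 7.4e-10). *Tnfrsf18*, which encodes GITR, was at 1886 and 1750 in control Tconvs and at 7580 and 7264 in control Tregs, a difference of 4.08-fold (2.03 ± 0.16, adjusted p = 4.33e-08). Its exons share 27.2% of their length with the antisense gene *Gm16008*, which was at 1062 and 986 in control Tconvs and at 3965 and 3836 in control Tregs. The strand setting of the counting is not stated in the sources used here, so that reads of the 2 genes cannot be told apart.

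Of the death-domain receptors, *Tnfrsf1a*, encoding TNFR1, was at 1972 and 1608 in control Tconvs and at 1063 and 994 in control Tregs. It was the one member that was lower in Tregs, to 0.58 of the level in Tconvs (-0.79 ± 0.14, adjusted p = 0.000294). *Tnfrsf25*, encoding DR3, was at 1113 and 1028 in control Tconvs and at 1330 and 1253 in control Tregs. These groups did not overlap, but the difference did not pass the test (0.27, 95% interval -0.02 to 0.56, adjusted p = 0.117). *Fas*, the death receptor for Fas ligand, was at 805 and 814 in control Tconvs and at 835 and 754 in control Tregs. These groups overlapped, with a log2 difference of -0.03 (95% interval -0.34 to 0.29, adjusted p = 0.894). The 2 receptors for TNF thus differed in opposite directions between the subsets.

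Other markers differed between the subsets of control mice too. All 5 cell division genes were higher in Tregs, with a sum of 1031 and 1047 in Tconvs and between 3190 and 3720 in Tregs, and *Mki67* had the largest difference (2.66, adjusted p = 2.02e-06). Of 5 macrophage and monocyte genes, which summed to between 1464 and 1465 in Tconvs and between 2560 and 2600 in Tregs, *Csf1r* (1.62, adjusted p = 2e-06) and *Adgre1* (2.57, adjusted p = 3.94e-06) were higher, and *Itgam* and *Lyz2* did not pass. Of 6 T cell genes 5 were lower, *Cd4* among them (-0.72, adjusted p = 0.000168). The B cell marker *Cd79b* (1.74, adjusted p = 0.000435) and the dendritic cell marker *Zbtb46* (1.39, adjusted p = 0.0228) were higher, *Klrb1c* (adjusted p = 0.000107) and *Cd8b1* (adjusted p = 7.41e-05) were lower, and 0 of the 4 tested erythroid genes passed in limma, with 0 at an unadjusted p-value under 0.05 and 0 by limma-voom. In CD70Tg mice all 4 of these erythroid genes were higher in Tregs than in Tconvs, by limma and by limma-voom. The 4 tested macrophage and monocyte genes were higher there too, *Itgam* by 2.07 and *Lyz2* by 1.08, as were the neutrophil gene *S100a9* (3.69, adjusted p = 0.000228), *Zbtb46* (2.80, adjusted p = 0.000183), *Cd79a* (1.92), *Cd79b* (2.49) and 1 of the 5 cell division genes, *Mki67* (1.97). Lower in CD70Tg Tregs than in CD70Tg Tconvs were *Cd22* (-1.49, not called by limma-voom), *Klrb1c* (-3.09), *Cd8a* (-1.18), *Cd8b1* (-1.33) and 3 of the 6 T cell genes. The part of dividing or other cells in the receptor values was not tested.

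In CD70Tg mice all 8 members passed the test between Tregs and Tconvs, 6 up and 2 down, where 22.6% of all tested genes were up and 20.1% down. This comparison and the one in control mice have no library in common, though they share the estimate of the spread, and each shares libraries with the comparisons of genotypes. The log2 fold changes were 3.41 ± 0.14 for *Tnfrsf9*, 2.83 ± 0.23 for *Tnfrsf4*, 2.00 ± 0.15 for *Tnfrsf1b*, 1.93 ± 0.16 for *Tnfrsf18* and 0.89 ± 0.11 for *Cd27*, each in the direction seen in control mice. *Tnfrsf1a* was again lower in Tregs (-0.75 ± 0.14, adjusted p = 0.000554). *Fas* was higher in Tregs (0.50 ± 0.15, adjusted p = 0.0124) and *Tnfrsf25* was lower (-0.42 ± 0.14, adjusted p = 0.0212), and both of these calls depend on single libraries. Without the second CD70Tg Tconv library the value for *Tnfrsf25* was -0.28 (adjusted p = 0.15), and it also missed the threshold without the first (0.0886) or the second (0.0769) CD70Tg Treg library. *Fas* missed it without the first CD70Tg Tconv library (0.0678) or the second CD70Tg Treg library (0.0974). With a required absolute log2 fold change over 1, *Tnfrsf4*, *Tnfrsf9*, *Tnfrsf1b* and *Tnfrsf18* remained in either genotype, where 14.7% of all tested genes were up by this rule in control and 12.3% in CD70Tg mice.

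**Figure D2:**
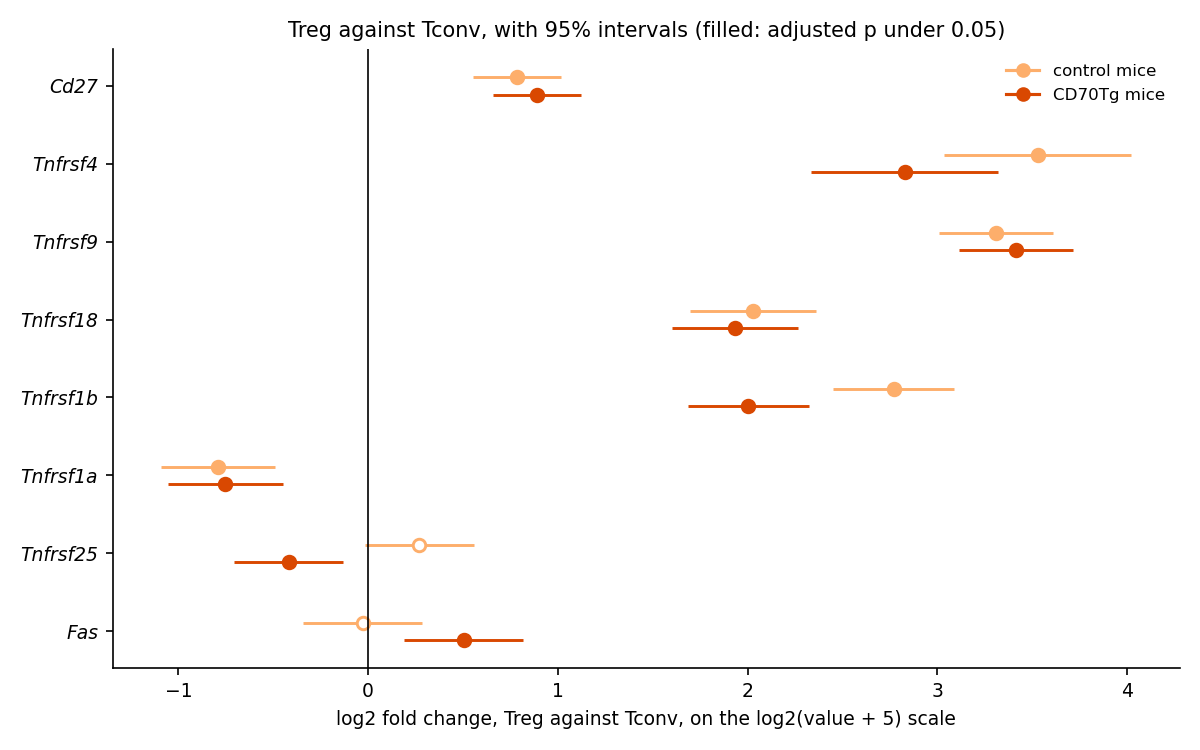
Log2 fold change of each receptor gene in Tregs against Tconvs (x axis, log2(value + 5) scale), with 95% intervals from limma, in control mice (light) and in CD70Tg mice (dark). Filled points passed an adjusted p-value of 0.05. *Tnfrsf25* and *Fas* are the members with open points in control mice, and *Tnfrsf1a* lies below 0 in both genotypes.

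Divided by exon length, which allows genes to be compared, the members fell into another order in each subset. In control Tregs *Tnfrsf4* stood first with 5542 ± 348 reads per 20 M per kb (SD, n = 2), followed by *Tnfrsf18* (4870 ± 147), *Tnfrsf1b* (4652 ± 107), *Cd27* (2302 ± 112) and *Tnfrsf9* (2116 ± 61.6). *Tnfrsf25* (567 ± 23.9) was well below these, and *Tnfrsf1a* (397 ± 18.8) and *Fas* (385 ± 27.8) came last. The libraries of each member lay apart from those of the next in this order, except that *Tnfrsf1a* and *Fas* overlapped. In control Tconvs *Cd27* stood first with 1336 ± 78.7 per kb, followed by *Tnfrsf18* (1193 ± 63.1), and *Tnfrsf9* came last with 212 ± 11.7. Between them *Tnfrsf1b* (694 ± 187) overlapped *Tnfrsf1a* (691 ± 99.3), and *Tnfrsf4* (489 ± 159) overlapped *Tnfrsf25* (470 ± 26.4).

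The order differed in CD70Tg cells at a few places. In CD70Tg Tconvs *Tnfrsf1b* had the highest mean, 1536 ± 187 per kb, but its libraries overlapped those of *Tnfrsf18* (1485 ± 469), which overlapped those of *Cd27* (1393 ± 69.9), which overlapped those of *Tnfrsf4* (1084 ± 496). *Fas* (342 ± 34.3) and *Tnfrsf9* (305 ± 73.0) came last and overlapped. In CD70Tg Tregs *Tnfrsf4* (7307 ± 125) stayed first, *Tnfrsf1b* (6139 ± 20.4) stood above *Tnfrsf18* (5545 ± 191), *Tnfrsf9* (3220 ± 124) stood above *Cd27* (2581 ± 69.6), and *Tnfrsf1a* (286 ± 12.3) came last with no overlap between neighbours. Of the 8 members' summed level per kb, *Cd27* made up 23.5 and 25.4% in control Tconvs and 21.7 and 17.5% in CD70Tg Tconvs. *Tnfrsf1b* made up 14.0 and 11.2% in control Tconvs and 22.7 and 20.2% in CD70Tg Tconvs, and *Tnfrsf1a* 12.9 and 12.3% against 7.27 and 6.26%. In Tregs, *Tnfrsf4*, *Tnfrsf18* and *Tnfrsf1b* each made up between 20.9 and 28.6% of the sum in every library, whatever the genotype.

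**Figure D3:**
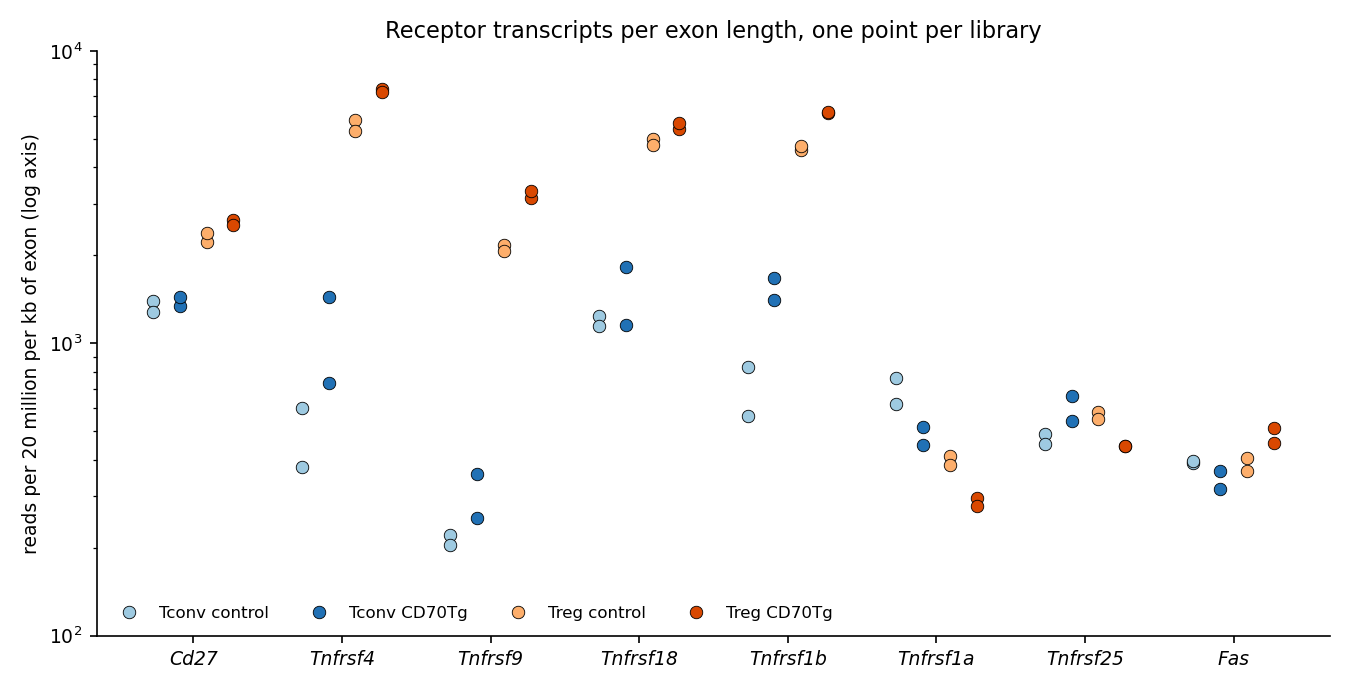
Level of each receptor gene per exon length (reads per 20 M per kb, log axis), 1 point per library, coloured by group. In control Tconvs *Cd27* and *Tnfrsf18* are the highest and *Tnfrsf9* the lowest, whereas in control Tregs *Tnfrsf4*, *Tnfrsf18* and *Tnfrsf1b* are the highest and *Tnfrsf1a* and *Fas* the lowest.

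The comparison of genotypes asks which receptors change where CD27 is engaged by transgenic CD70. In CD70Tg Tconvs *Tnfrsf1b*, *Tnfrsf4* and *Tnfrsf9* were upregulated and *Tnfrsf1a* was downregulated, whereas *Cd27*, *Tnfrsf18*, *Tnfrsf25* and *Fas* did not pass the test. Thus 3 of 8 members were up and 1 was down, where 6.82% of all tested genes were up and 1.99% down. At an unadjusted p-value under 0.05 in limma, 4 members were higher and 1 lower, against 12.3 and 6.76% of all tested genes. Limma-voom on the reads behind the values gave the same counts of members, 4 up and 1 down, against 10.4 and 5.05% of all tested genes. The median log2 fold change was 0.31 over the members and 0.01 over all tested genes. With no minimum value, where 1.38% of all genes passed in either direction, *Tnfrsf4* (adjusted p = 0.203), *Tnfrsf9* (0.243) and *Tnfrsf1a* (0.149) were not called.

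*Tnfrsf1b* rose from 3155 and 2145 in control to 5359 and 6367 in CD70Tg Tconvs. Both CD70Tg libraries were above both controls, by 2.24-fold (1.17 ± 0.15, adjusted p = 6.19e-05), and the call held under each of the alternatives tried, with log2 fold changes between 0.89 and 1.44 and adjusted p-values of at most 0.0269. *Tnfrsf4* rose from 821 and 515 to 1000 and 1958, or 2.14-fold (1.10 ± 0.23, adjusted p = 0.00524). The groups did not overlap, but the second CD70Tg library was far above the first. Without it the log2 fold change was 0.62 (adjusted p = 0.107), and without the second control library it was 0.77 (adjusted p = 0.0678).

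*Tnfrsf9* rose from 600 and 555 to 689 and 970, or 1.41-fold (0.50 ± 0.14, adjusted p = 0.0365). The gap between the groups was small beside the distance between the CD70Tg libraries, and without the second of these the log2 fold change was 0.25 (adjusted p = 0.344). The call was also lost without the first (0.0559) or second (0.173) control Tconv library, and without any 1 of the 4 Treg libraries, which enter through the shared spread (0.057 to 0.0597), and in a fit to the 4 Tconv libraries alone (0.162). *Tnfrsf18* was at 1886 and 1750 in control and at 1758 and 2769 in CD70Tg Tconvs. These groups overlapped, and the log2 fold change of 0.28 did not pass the test (95% interval -0.05 to 0.61, adjusted p = 0.375). It was -0.05 without the second CD70Tg library and 0.61 without the first (adjusted p = 0.903 and 0.00291), so that the value of *Tnfrsf18* rests on which of them is kept.

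*Cd27* itself was at 3239 and 2980 in control and at 3129 and 3359 in CD70Tg Tconvs. These groups overlapped (0.06, 95% interval -0.17 to 0.29, adjusted p = 0.849), and the interval leaves room for a level up to 1.23-fold higher or 0.89 of the control level.

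*Tnfrsf1a* fell from 1972 and 1608 to 1167 and 1339, to 0.70 of the control level (-0.51 ± 0.14, adjusted p = 0.0327). All CD70Tg values were below all control values, but the adjusted p-value was 0.315 without the first control library and 0.13 without the first CD70Tg library. It was 0.053 and 0.0516 without the first or second control Treg library, and 0.0728 in a fit to the 4 Tconv libraries alone. *Tnfrsf25* was at 1113 and 1028 in control and at 1234 and 1498 in CD70Tg Tconvs. These groups did not overlap, and the log2 fold change of 0.34 did not pass the test (95% interval 0.06 to 0.63, adjusted p = 0.156). It passed with limma-voom on the reads of all libraries (0.38, adjusted p = 0.0478) and without the first CD70Tg Tconv library (0.48, adjusted p = 0.0425). *Fas* was at 805 and 814 in control and at 655 and 755 in CD70Tg Tconvs, lower in both CD70Tg libraries without passing the test (-0.20, 95% interval -0.52 to 0.11, adjusted p = 0.542).

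Several measures moved with these values in Tconvs. All 5 genes of a cell division list rose in CD70Tg Tconvs, with a summed value of 1031 and 1047 in controls, 1818 in the first and 3923 in the second CD70Tg library. That second library was also the deepest and had the higher values of *Tnfrsf4*, *Tnfrsf9* and *Tnfrsf18*. *Foxp3* in Tconvs was at 5.21 and 7.51% of the mean Treg level in control and at 5.51 and 6.05% in CD70Tg mice. *Tnfrsf4* in Tconvs was at 10.9 and 6.81% of the mean Treg level in control and at 10.03 and 19.6% in CD70Tg mice, and *Tnfrsf1b* was at 17.8 and 12.1% against 22.9 and 27.2%. *Tnfrsf9* was at 10.4 and 9.64% against 7.86 and 11.1%. For *Tnfrsf4* and *Tnfrsf9* these shares overlapped between the genotypes. Of the 6 Treg markers, *Il2rb* (1.05) and *Ctla4* (0.78) rose in CD70Tg Tconvs, and the other 4, *Foxp3* among them, did not pass. The sum of *Cd8a* and *Cd8b1* lay between 681 and 720 in control and between 1563 and 1590 in CD70Tg Tconvs, and *Cd8a* itself went from 17 and 28 to 508 and 608. The sum of 4 NK cell genes lay between 417 and 444 in control and between 81 and 88 in CD70Tg Tconvs, and was nearly all *Klrb1c* (403 and 423 against 75 and 68), with *Ncr1* and *Klra8* at 2 or below. Dendritic cell markers, 6 in all, summed to between 72 and 138 in control and between 195 and 345 in CD70Tg Tconvs, with a rise of *Itgax* (1.76, adjusted p = 0.0152). Of 5 macrophage and monocyte genes *Itgam* fell (-0.95, adjusted p = 0.0269), and their sum lay between 1464 and 1465 in control and between 890 and 1150 in CD70Tg Tconvs. Cells with surface CD8β, CD49b (carried by NK cells) or CD11c were targets of the magnetic removal. The part of dividing or other cells in the receptor values was not tested.

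In Tregs, *Tnfrsf9* was the member that passed the test between genotypes. Thus 1 of 8 members was up and 0 were down, where 3.94% of all tested genes were up and 3.46% down. At an unadjusted p-value under 0.05 in limma, 3 members were higher (*Tnfrsf9*, *Tnfrsf1b* and *Fas*) and 2 were lower (*Tnfrsf1a* and *Tnfrsf25*), against 9.36 and 12.3% of all tested genes. Limma-voom called 1 member up and 0 down, against 1.49 and 0.531% of all tested genes. The median log2 fold change was 0.26 over the members and -0.05 over all tested genes.

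*Tnfrsf9* rose from 5877 and 5640 in control to 8526 and 9004 in CD70Tg Tregs. The groups lay well apart, with a 1.52-fold difference (0.61 ± 0.14, adjusted p = 0.0152). The size of the difference moved little, between 0.57 and 0.65 over the alternatives, but the adjusted p-value was between 0.0819 and 0.115 when any 1 of the 4 Treg libraries was left out, and 0.104 with no minimum value, where 0.986% of all genes passed in either direction.

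*Tnfrsf4* was at 7900 and 7229 in control and at 10094 and 9853 in CD70Tg Tregs. These groups did not overlap, yet with the spread shared by all 4 groups the log2 fold change of 0.40 did not pass the test (95% interval -0.09 to 0.89, adjusted p = 0.347). *Tnfrsf1b* was at 17474 and 18052 in control and at 23384 and 23494 in CD70Tg Tregs, again with no overlap (0.40, 95% interval 0.08 to 0.72, adjusted p = 0.125). For these genes the Treg libraries agreed far more closely than the Tconv libraries did, and in a fit to the 4 Treg libraries alone the adjusted p-values were 0.00406 for *Tnfrsf4* and 0.00355 for *Tnfrsf1b*. Without the first or the second control Tconv library *Tnfrsf1b* had an adjusted p-value of 0.0444. *Tnfrsf18* was at 7580 and 7264 in control and at 8244 and 8656 in CD70Tg Tregs (0.19, 95% interval -0.15 to 0.52, adjusted p = 0.542).

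*Cd27* was at 5173 and 5543 in control and at 6123 and 5894 in CD70Tg Tregs. Both CD70Tg values were above both control values, and the difference of 1.12-fold did not pass the test (0.17, 95% interval -0.07 to 0.40, adjusted p = 0.418). A loss of *Cd27* transcript was thus not detected in either subset, and the lower ends of the intervals, -0.07 in Tregs and -0.17 in Tconvs, bound how large a loss these libraries allow.

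*Tnfrsf1a* was at 1063 and 994 in control and at 763 and 718 in CD70Tg Tregs. These groups did not overlap, and the log2 fold change of -0.47 missed the threshold (95% interval -0.77 to -0.17, adjusted p = 0.055). It passed with median-of-ratios factors (0.0307), with quantile normalization (0.0287), in the fit to the 4 Treg libraries (0.0263), and without any 1 of the 4 Tconv libraries (0.0359 to 0.0476). *Tnfrsf25* was at 1330 and 1253 in control and at 1014 and 1017 in CD70Tg Tregs, lower in both CD70Tg libraries without passing the test (-0.34, 95% interval -0.63 to -0.06, adjusted p = 0.147). *Fas* was at 835 and 754 in control and at 941 and 1061 in CD70Tg Tregs, higher in both CD70Tg libraries without passing the test (0.33, 95% interval 0.02 to 0.65, adjusted p = 0.207).

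Markers of other cells were seen in CD70Tg Tregs. Of 5 erythroid genes 4 were tested, and all 4 rose with limma, whereas limma-voom on the reads called 0. The 5 together summed to between 546 and 1495 in control and between 2373 and 3951 in CD70Tg Tregs. The sum over 6 neutrophil genes lay between 5 and 10 in control and between 210 and 233 in CD70Tg Tregs, where 3 of the 6, *Ly6g* and *Mpo* among them, were at 3 reads or fewer in both libraries and *S100a9*, the one tested, rose (adjusted p = 0.00111). Dendritic cell markers, 6 in all, summed to between 99 and 156 in control and between 378 and 410 in CD70Tg Tregs, with a rise of *Zbtb46* (adjusted p = 0.00174). *Itgam* rose (1.13, adjusted p = 0.0129) and *Csf1r* fell (-0.67, adjusted p = 0.0293), while the sum of 5 macrophage and monocyte genes lay between 2560 and 2600 in control and between 2444 and 2698 in CD70Tg Tregs. *Cd8a* went from 25 and 71 to 262 and 223 (2.37, adjusted p = 0.00121), with *Cd8b1* at 292 and 346 against 398 and 408 (adjusted p = 0.259), and *Klrb1c* from 64 and 36 to 0 and 11 (adjusted p = 0.00352). Limma-voom called *Cd8a* and none of *Itgam*, *Csf1r* and *Klrb1c*. The cell division genes summed to between 3190 and 3720 in control and between 5310 and 5700 in CD70Tg Tregs, with 0 of 5 passing the test. The erythroid sum and the macrophage and monocyte sum were above the values of *Tnfrsf1a*, *Tnfrsf25* and *Fas* in both CD70Tg Treg libraries. The neutrophil and dendritic cell sums were below those of every member. How much receptor RNA such cells hold was not measured. Cells with Ter119, GR1 or CD11c on the surface were targets of the magnetic removal, and Tregs were sorted by GFP. The part of other cells in the receptor values of Tregs was not tested.

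**Figure D4:**
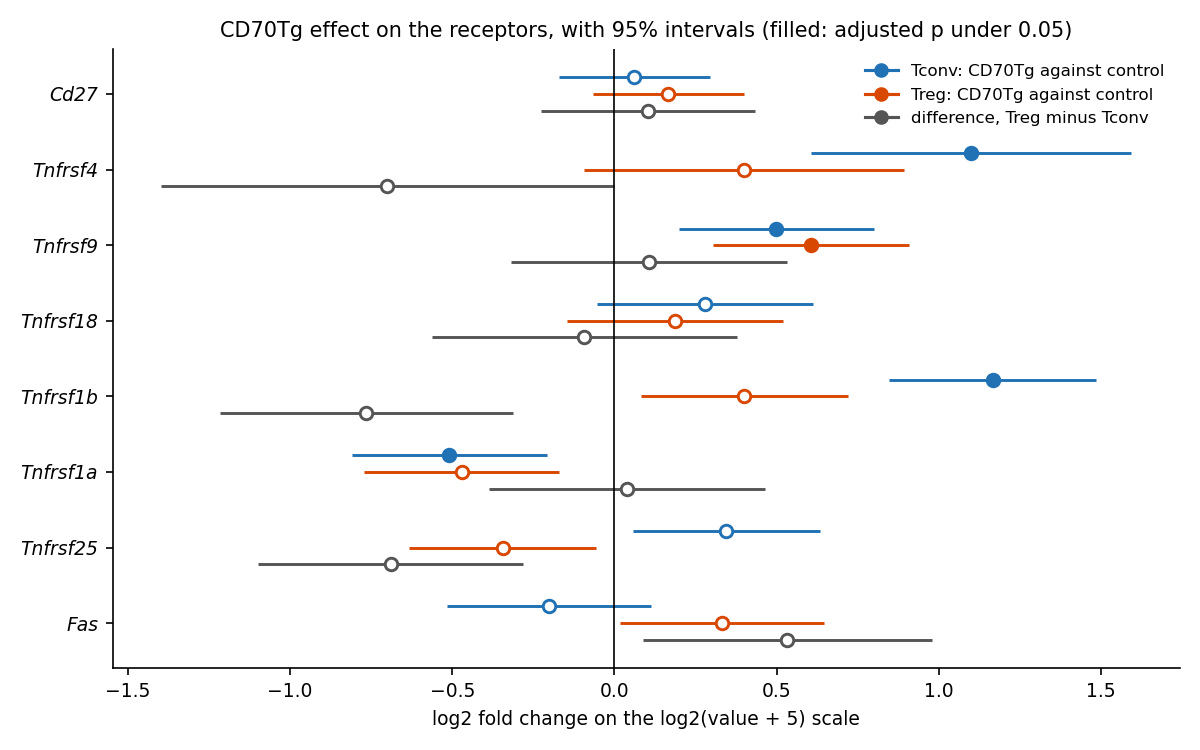
Log2 fold change of each receptor gene in CD70Tg against control cells (x axis, log2(value + 5) scale) in Tconvs (blue) and Tregs (orange), and the difference of these effects, Tregs minus Tconvs (grey), with 95% intervals from limma. Filled points passed an adjusted p-value of 0.05, which holds for *Tnfrsf1b*, *Tnfrsf4*, *Tnfrsf9* and *Tnfrsf1a* in Tconvs, for *Tnfrsf9* in Tregs and for no difference.

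The effects of CD70 were then compared between the subsets. None of the 8 members passed the test of the difference with limma, where 1.02% of all tested genes passed, in either direction. By an unadjusted p-value under 0.05, 4 members differed, against 10.7% of all tested genes, and limma-voom on the reads called 0, against 0.476%. The differences (Tregs minus Tconvs) of those 4 were -0.77 for *Tnfrsf1b* (adjusted p = 0.12), -0.70 for *Tnfrsf4* (adjusted p = 0.465), -0.69 for *Tnfrsf25* (adjusted p = 0.121) and 0.53 for *Fas* (adjusted p = 0.349). So *Tnfrsf1b* and *Tnfrsf4*, which passed the test in Tconvs and not in Tregs, are not shown to differ between the subsets. The difference for *Tnfrsf1b* passed without the first control Tconv library (-1.04, adjusted p = 0.00541), and without the first CD70Tg Tconv library those for *Tnfrsf4* (-1.18, adjusted p = 0.0199) and *Tnfrsf25* (-0.83, adjusted p = 0.0309) passed.

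*Tnfrsf25* and *Fas* are the 2 members whose genotypes did not overlap in either subset and lay in opposite order in the 2. Both CD70Tg libraries of *Tnfrsf25* lay above the controls in Tconvs and below them in Tregs, and those of *Fas* the other way round, and neither gene passed the test between genotypes in either subset. Of all 12816 tested genes, 5.49% had such a pattern. The other 4 members had smaller differences, whose intervals reach to either side of 0. They were 0.04 for *Tnfrsf1a* (95% interval -0.39 to 0.46), -0.09 for *Tnfrsf18* (-0.56 to 0.38), 0.10 for *Cd27* (-0.225 to 0.43) and 0.11 for *Tnfrsf9* (-0.32 to 0.53).

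The ligands of the 8 receptors were mostly low in these cells. Of the 8 ligand genes listed, *Fasl*, *Tnf*, *Lta* and *Tnfsf9* were tested. *Fasl*, encoding Fas ligand, was at 408 and 386 in control and at 784 and 868 in CD70Tg Tconvs, a 2.07-fold rise (1.05 ± 0.22, adjusted p = 0.00544), and at 93 and 106 against 168 and 131 in Tregs, from 16 to 24 reads a library (0.56, adjusted p = 0.152). The call in Tconvs was lost under at least 1 of the alternatives. *Fasl* was lower in Tregs than in Tconvs of control mice, to 0.26 of their level (-1.95 ± 0.22, adjusted p = 3.41e-06). *Tnf* was at 422 and 335 in control and at 222 and 652 in CD70Tg Tconvs, which overlapped, and at 811 and 824 against 586 and 501 in Tregs (-0.59, adjusted p = 0.314). *Lta*, encoding lymphotoxin alpha, which also binds both TNF receptors, was at 274 and 277 against 294 and 353 in Tconvs and at 641 and 596 against 398 and 533 in Tregs, with no call in either subset. *Tnf* (1.11, adjusted p = 0.0104) and *Lta* (1.15, adjusted p = 0.000217) were higher in Tregs than in Tconvs of control mice. *Tnfsf9*, the ligand of 4-1BB, was at 78 and 40 against 90 and 113 in Tconvs and at 34 and 88 against 74 and 66 in Tregs.

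The other 4 ligand genes were below the minimum for testing. *Cd70* was at 4 and 3 in control and at 15 and 28 in CD70Tg Tconvs, and at 0 and 9 against 11 and 44 in Tregs. These values rest on 0 to 3 reads in the control and 1 to 46 reads in the CD70Tg libraries, and the table does not tell the transgene from the mouse's own *Cd70*. *Tnfsf4*, the ligand of OX40, was at 35 or below, *Tnfsf15*, the ligand of DR3, at 22 or below, and *Tnfsf18*, the ligand of GITR, at 1 in a single library and 0 in the others.

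Among 20 other receptors of the family, 10 passed the minimum for testing. None of the 10 was called between genotypes in Tregs by limma, where 3.94% of all tested genes were up and 3.46% down. At an unadjusted p-value under 0.05, 1 was higher and 1 lower, against 9.36 and 12.3% of all tested genes. Limma-voom called 0, against 1.49% up and 0.531% down. In Tconvs 1 was called by limma, *Tnfrsf13b* (TACI), which fell from 1044 and 915 to 623 and 652 (-0.61 ± 0.14, adjusted p = 0.00803). Of all tested genes 6.82% were up and 1.99% down there. The call of *Tnfrsf13b* was lost under at least 1 of the alternatives. At an unadjusted p-value under 0.05, 2 were lower in Tconvs and 0 higher, against 6.76 and 12.3% of all tested genes. Limma-voom gave the same counts, against 5.05% lower and 10.4% higher. *Tnfrsf10b*, a receptor for TRAIL, was at 95 in both control libraries and at 52 and 44 in CD70Tg Tconvs (-0.92, adjusted p = 0.0757). In Tregs *Tnfrsf13b* was at 1621 and 1559 in control and at 1296 and 1142 in CD70Tg mice (-0.38, adjusted p = 0.105), and *Tnfrsf10b* at 127 and 149 against 168 and 142 (0.16, adjusted p = 0.815). Between the subsets of control mice, *Tnfrsf8*, which encodes CD30, another receptor of activated lymphocytes, had the largest difference, from 66 and 21 in Tconvs to 859 and 942 in Tregs (4.40 ± 0.37, adjusted p = 1.1e-07). *Tnfrsf13b* (0.70) was also higher in Tregs and *Tnfrsf26* (-0.72) was lower. Thus 2 of the 10 were up and 1 was down, where 27.5% of all tested genes were up and 18.4% down. The 10 that were not tested reached at most 63 in any library, and *Tnfrsf17* was listed at 0 in all 8.

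The proteins that carry the signal of these receptors were described by 2 lists. Of 14 TRAFs, adaptors and regulators, 2 rose and 0 fell in CD70Tg Tregs, and 3 rose and 0 fell in CD70Tg Tconvs. Of all tested genes 3.94% were up and 3.46% down in Tregs, and 6.82% and 1.99% in Tconvs. Limma-voom on the reads gave these counts of the list too, where 1.49% of all genes were up in Tregs and 10.4% in Tconvs. At an unadjusted p-value under 0.05 in limma 3 were higher and 1 lower in Tregs, against 9.36 and 12.3% of all genes. *Traf1*, itself a known NF-κB target that binds the TRAF2 complex, went from 4159 and 4256 to 6646 and 6759 in Tregs (0.67 ± 0.12, adjusted p = 0.00278) and from 2162 and 1875 to 3357 and 4072 in Tconvs (0.88 ± 0.12, adjusted p = 0.000127). *Birc2*, which encodes the ubiquitin ligase cIAP1, rose by 0.74 ± 0.13 in the Treg comparison (adjusted p = 0.00197) and by 0.43 ± 0.13 in that of Tconvs (adjusted p = 0.0451), and *Birc3*, which encodes cIAP2, rose in Tconvs (0.49 ± 0.13, adjusted p = 0.0205). The median over this list was 0.09 in Tregs and 0.07 in Tconvs, where that over all tested genes was -0.05 and 0.01. The highest adjusted p-values over the alternatives were 0.0535 for *Traf1* and 0.0626 for *Birc2* in Tregs, and 0.0179 for *Traf1*, 0.206 for *Birc2* and 0.25 for *Birc3* in Tconvs. *Fadd*, *Casp8* and *Tradd*, which act at the death domains, passed in neither subset.

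Of 13 NF-κB genes, 5 rose and 0 fell in either subset, namely *Nfkb1*, *Nfkb2*, *Nfkbia*, *Nfkbie* and *Tnfaip3*. Of all tested genes 3.94% rose and 3.46% fell in Tregs, and 6.82% and 1.99% in Tconvs. The median log2 fold change of the list was 0.37 in Tregs and 0.48 in Tconvs, where that over all tested genes was -0.05 and 0.01. With limma-voom on the reads the counts were 2 in Tregs and 6 in Tconvs, where 1.49 and 10.4% of all genes rose. At an unadjusted p-value under 0.05 in limma they were 6 and 7, with 0 lower, where 9.36 and 12.3% of all genes were higher. *Nfkb2*, the precursor of the alternative pathway's p52, went from 3417 and 3118 to 6458 and 6297 in Tregs (0.97 ± 0.15, adjusted p = 0.000933) and from 1797 and 1465 to 2680 and 3916 in Tconvs (1.00 ± 0.15, adjusted p = 0.000367). *Nfkb1*, the precursor of p50, had a log2 fold change of 0.43 ± 0.12 in Tregs (adjusted p = 0.0366). In Tconvs it was 1.03 ± 0.12 (adjusted p = 2.08e-05), a difference that did not pass its own test (-0.59, adjusted p = 0.133). The inhibitors *Nfkbie* (0.66 and 0.70) and *Nfkbia* (0.54 and 0.56), and *Tnfaip3* (0.49 and 0.83), which encodes the deubiquitinase A20, had these log2 fold changes in Tregs and Tconvs. The calls in Tregs were all lost under at least 1 alternative, with highest adjusted p-values of 0.322 for *Nfkb1*, 0.271 for *Tnfaip3*, 0.136 for *Nfkbia*, 0.122 for *Nfkbie* and 0.0567 for *Nfkb2*. In Tconvs those of *Nfkb1* (0.00924) and *Tnfaip3* (0.0302) held under each alternative, and those of *Nfkbia* (0.144), *Nfkbie* (0.119) and *Nfkb2* (0.0533) did not. *Rela*, *Relb*, *Rel*, *Nfkbib*, which encodes another inhibitor (adjusted p = 0.149 in Tregs and 0.107 in Tconvs), and the kinase genes *Map3k14*, *Chuk*, *Ikbkb* and *Ikbkg* passed in neither subset.

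**Figure D5:**
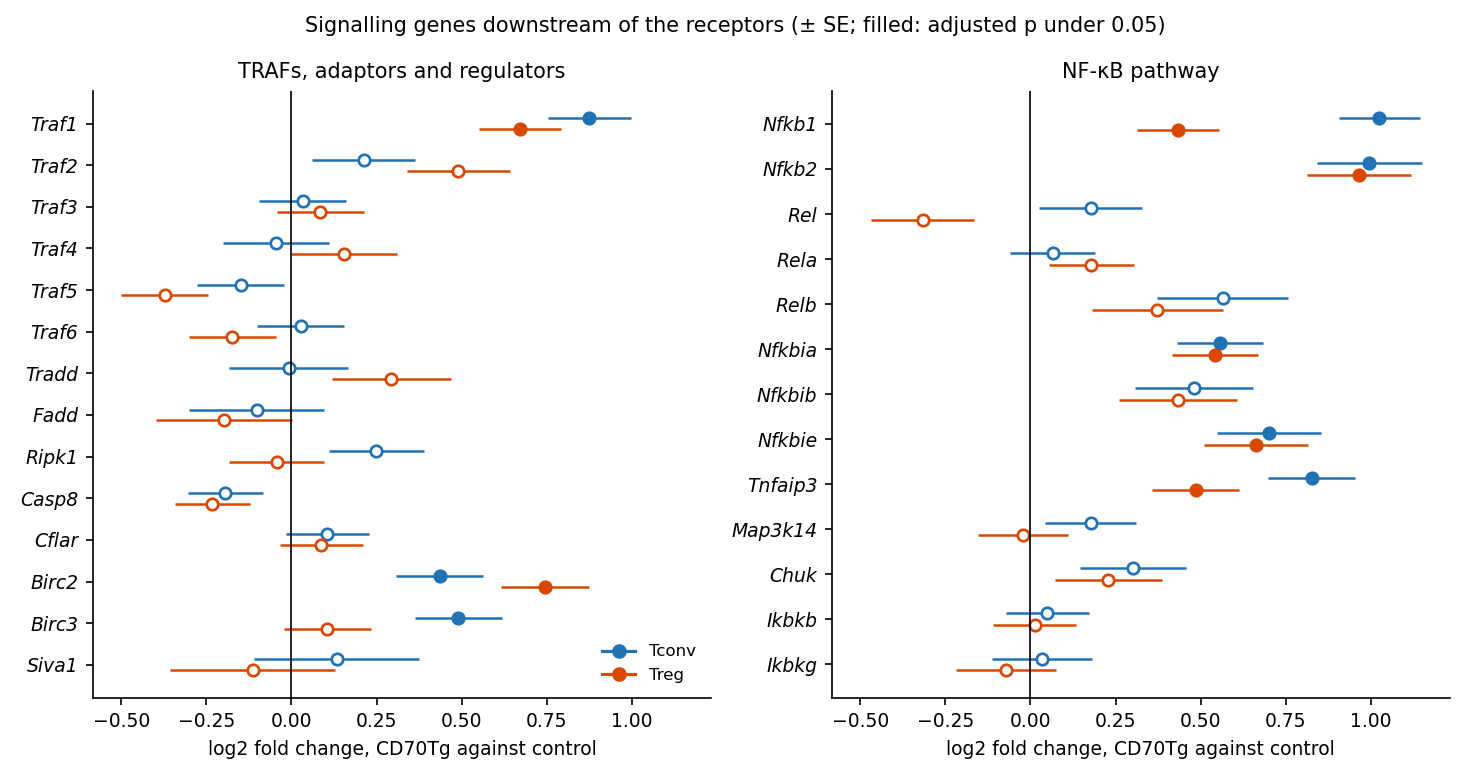
Log2 fold change (CD70Tg against control, ± SE) of 14 TRAFs, adaptors and regulators (left) and of 13 NF-κB pathway genes (right), in Tconvs (blue) and Tregs (orange). Filled points passed an adjusted p-value of 0.05, which holds for *Traf1*, *Birc2*, *Nfkb1*, *Nfkb2*, *Nfkbia*, *Nfkbie* and *Tnfaip3* in both subsets and for *Birc3* in Tconvs.

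The genes whose profiles over the 8 libraries were most like each member's were found by the root mean square difference of centred log2 values, which is 0 for identical profiles. For *Tnfrsf9* they were *Socs2* (0.14), *Ccr3* (0.16) and *Gm8203* (0.19), and for *Tnfrsf4* they were *Vsig10* (0.22), *Arhgef5* (0.23) and *Epcam* (0.25). *Tnfrsf9* was itself the gene at rank 9 for *Tnfrsf4*, and *Tnfrsf4* the gene at rank 12 for *Tnfrsf9*. For *Tnfrsf1b* they were *Kcnk6* (0.14), *Naip5* (0.15) and *Whrn* (0.15), for *Tnfrsf1a* *Acaa2* (0.06), *Nme1* (0.07) and *Scmh1* (0.09), and for *Cd27* *Mapk9* (0.06), *Ppp6r2* (0.07) and *Msi2* (0.07). The nearest gene to *Tnfrsf18* was its overlapping antisense gene *Gm16008* (0.06), followed by *Gm6548* (0.13) and *Eif2ak2* (0.14). *Tnfrsf25* was nearest to *Pde4dip* (0.08), *Fam117a* (0.09) and *Fyn* (0.09), and *Fas* to *Ptgr2* (0.05), *Jund* (0.08) and *Gpx4* (0.08). The profiles of these 2 members varied little, by 0.19 and 0.20 around their own means, so that a small difference says less for them than for *Tnfrsf9*, which varied by 1.71. The 8 points fall into 2 subsets and share their depth, which differed between the subsets.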

How the data were processed

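RNA of sorted splenic Tregs and Tconvs was prepared by the authors with the Ovation SoLo kit and sequenced in pairs. Per the labels and methods, reads were trimmed with Trimmomatic 0.36, mapped to mm10 with STAR 2.5.3 and counted per gene with HTSeq 0.9.1. The deposited score values are these counts scaled by the authors to 20 M per library and rounded up. Strand and overlap settings are not given in the sources used here. The 8 columns were assigned to groups by subset and genotype. Differences in depth are hidden by the scaling and were read from the step between low values.

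Of 52636 rows, 4131 with clone-derived names were left out, and for 97 repeated names all rows were kept under separate names. A minimum of 60 in at least 2 libraries left 12816 genes, which were tested on log2(value + 5) with limma 3.58.1 (trend, prior degrees of freedom 12.3) in R 4.3.3, with a coefficient per group, Benjamini-Hochberg adjustment within each comparison and calls at an adjusted p-value under 0.05. Intervals (95%) use limma's moderated spread, and limits from reads cover counting error only. The procedure was tested on simulated data with a fixed spread and changes larger than those of any member between genotypes. This does not tell how it treats changes of the size seen here.

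The members, gene lists and tests were chosen with earlier results of these data known. Named were all members and ligands, up to 4 passing genes of each other pathway list and comparison by size, the 3 nearest profiles per member, and markers that stood apart. *Fadd*, *Casp8*, *Tradd*, *Rela*, *Relb*, *Rel*, *Nfkbib*, *Tnfrsf10b* and the kinase genes were named besides, after their values were seen, as were single list genes named at low values. Alternatives were other pseudocounts (1, 20), minima, scalings, thresholds, limma-voom on reads, a fit per comparison, and leaving out each library.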

Additional observations from a re-analysis of the deposited data

Results flagged for a closer look

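*Tnfrsf25*, *Fas* and the ligand gene *Lta* were flagged because both CD70Tg libraries lay on one side of both control libraries in Tconvs and on the other side in Tregs. They came from a search of the 8 members, 10 other receptors, 4 ligands, 14 TRAFs, adaptors and regulators, and 13 NF-κB genes. The CD70Tg effect in Tregs minus that in Tconvs was -0.69 on the log2 scale for *Tnfrsf25* (adjusted p = 0.121 with limma), 0.53 for *Fas* (adjusted p = 0.349) and -0.64 for *Lta* (adjusted p = 0.423). None of these differences passed the test over all genes. Of all 12816 tested genes, 704 (5.49%) had genotypes that separated in opposite directions in the 2 subsets.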

How the results depend on the processing

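The directions of the members' log2 fold changes were the same under nearly all alternatives. Over members, comparisons and alternatives, 619 values kept direction and side of the threshold, 28 lost the threshold, 17 gained it and 8 changed sign. Many of these alternatives could not change a direction. Other minima, a fit to the 4 libraries of a comparison and leaving out a library outside it do not alter its log2 fold changes. The count of kept directions was thus partly fixed in advance. The share of all genes that passed in either direction is given in brackets. In CD70Tg against control Tregs 1 member passed (7.40%), against 0 with no minimum value (0.986%), 2 with median-of-ratios factors (8.21%), 2 with quantile normalization (9.49%), 4 in a fit to the 4 libraries alone (12.6%), 0 with a required absolute log2 fold change over 1 (3.60%), 0 at an adjusted p-value under 0.01 (3.03%), and 0 to 3 with 1 library left out (2.31 to 10.1%). In Tconvs 4 passed (8.81%), against 1 with no minimum value (1.38%), 5 with limma-voom on the reads (15.4%), 2 in the fit to 4 libraries (7.79%), 2 with the fold threshold (4.65%), 2 at 0.01 (5.16%), and 2 to 5 with 1 library left out (4.03 to 12%). Having no minimum adds low genes to the adjustment and also changes the moderated spread. The difference between subsets had 0 members (1.02%), and 0 to 2 with 1 library left out (0.47 to 2.12%). Between subsets 6 members passed in control mice (45.8%), 4 with the fold threshold (19.2%), and 8 in CD70Tg mice (42.7%), 4 with the fold threshold (17.2%) and 6 to 8 with 1 library left out (29.0 to 41.9%). With 1 library left out, the sign changed for *Tnfrsf18* in Tconvs (-0.047 to 0.61, negative without the second CD70Tg library), for *Fas* between control subsets (-0.10 to 0.0445, positive without the second control Treg library), and for 3 differences between subsets, none of which had passed the test. These were *Tnfrsf9* (-0.14 to 0.35, negative without the first CD70Tg Tconv library), *Tnfrsf18* (-0.42 to 0.23, positive without the second) and *Tnfrsf1a* (-0.11 to 0.18, negative without the first control Tconv, the first CD70Tg Tconv, the second control Treg or the first CD70Tg Treg library). A group left with 1 library was assumed to vary like the others. The cause of the changes was not tested. No paired analysis was possible because the columns of the table are numbered through from 1 to 8 and carry none of the replicate numbers of the labels. The shallow Treg libraries (1.91 to 4.57 M reads on genes) limit what low ligand and receptor genes can show.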
